A study of Homo sapiens with 12 samples.

Results

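The genes described here were 55 ribosome biogenesis factors, chosen by name as rows of a count table of 25369 genes, and all 55 were found. They were grouped by the particle they help to build: 21 factors of the small (40S) subunit, 23 factors of the large (60S) subunit, 8 proteins of small nucleolar ribonucleoproteins (snoRNPs), and 3 nucleolar proteins that act at several steps (NCL, NPM1 and DDX21). The table came from poly(A)+ RNA-seq of RKO (colon carcinoma), A549 (lung adenocarcinoma) and H460 (large cell lung carcinoma) cells. Each line was held in normoxia or kept at 1% O2 for 24 h, with 2 libraries per group and 12 libraries in all. The labels name no drug and no genetic change in any group. RKO and A549 cells grew in DMEM and H460 cells in RPMI, so medium and the H460 line cannot be told apart. The study describes its duplicates as biological and independent.

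Ribosome assembly begins in the nucleolus, where RNA polymerase I makes a long precursor RNA. Box C/D snoRNPs methylate this RNA, box H/ACA snoRNPs convert uridines to pseudouridine, and the U3 snoRNP with the small-subunit processome cleaves the small-subunit part out of it. Separate sets of GTPases, helicases and scaffold proteins then fold and export the pre-40S and pre-60S particles. MYC is a well known transcriptional activator of many of these genes, and rapidly growing tumour cells express them strongly. The libraries measured the mRNAs of the factors, not the precursor RNA, the ribosomes or the proteins.

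Counted reads ranged from 27350424 in the first H460 normoxia library to 41757584 in the first A549 hypoxia library. The 2 hypoxia marker genes CA9, a carbonic anhydrase, and NDRG1 were higher in hypoxia in all lines, which fitted the oxygen labels. The log2 fold changes of CA9 in RKO, A549 and H460 were 4.45, 5.65 and 6.81, and those of NDRG1 were 4.28, 4.73 and 6.08. Tissue markers were sparse. Of 6 colon genes only 1, CDX2, was above 0.5 CPM (the count scaled to library size) in both RKO normoxia libraries. Of the same 6 genes 2 in A549 and 0 in H460 normoxia were above that level. Of 6 lung genes 2 in A549, 1 in H460 and 1 in RKO normoxia (KRT7) were above it. The number of genes detected thus did not separate the lines by tissue. The lung genes NKX2-1 and SFTPB were at or near 0 in A549 normoxia, and KRT7 made up nearly all of the lung list there. The 3 endothelial genes read summed to at most 0.748 CPM in any library. The sums of other cell type lists differed between the conditions. The 4 epithelial genes summed to 199 to 204 CPM in RKO normoxia and 112 to 116 CPM in hypoxia, to 2715 to 3254 and then 2388 to 2473 CPM in A549, and to 1282 to 1326 and then 802 to 820 CPM in H460. Of the 5 fibroblast genes, COL1A1 stood in A549 at 49.2 and 88.6 CPM in normoxia and at 130 and 413 CPM in hypoxia, the highest in the second hypoxia library, while COL1A2, COL3A1 and DCN were at or near 0 there. The list summed to at most 2.48 CPM in RKO and to 24.0 to 39.4 CPM in H460. Of the 3 leukocyte genes PTPRC and CD3E were at or near 0 in every library, and nearly all of the sum was CD68, at 468 to 498 and then 637 to 662 CPM in RKO, 116 to 158 and then 133 to 136 CPM in A549, and 19.6 to 22.8 and then 34.0 to 42.2 CPM in H460. The part of these genes in the results was not tested. Because CPM is a share of counted reads, fewer cells of a kind and less RNA per cell cannot be told apart in these bulk samples.

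The 55 factors took a smaller share of the reads in every hypoxia library than in either normoxia library of the same line. In RKO the share was 1.28% in both normoxia libraries and 0.536% and 0.621% in hypoxia. In H460 it was 0.983% and 1.02% in normoxia and 0.543% in both hypoxia libraries. In A549 it was 0.923% and 0.814% in normoxia, and 0.690% and 0.505% in hypoxia. By this pooled share the 2 hypoxia libraries lay close together in RKO and H460 and apart in A549. Abundant factors weigh most in it, and NPM1 held 77666 of the 163771 factor reads in the first H460 hypoxia library. Single factors could differ more, such as NOP56 at 87.6 and 166 CPM in the 2 RKO hypoxia libraries.

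A gene was called lower or higher when its adjusted p (edgeR quasi-likelihood test, Benjamini-Hochberg adjustment over all genes tested in that line) was under 0.1 and the fold over 1.5. In RKO 54 of the 55 factors were called lower and none higher, where 15.1% of all tested genes were called lower and 18.8% higher. All 55 had both hypoxia libraries below both normoxia libraries, an order seen in 35.1% of all genes, while 35.2% of all genes had the opposite order and none of the factors did. The median log2 fold change of the factors was -1.20, beside 0.01 for all genes. In H460 42 factors were called lower and 2 higher, where the shares of all genes were 27.3% and 24.6%. The median was -1.18 beside -0.04 for all genes. H460 libraries were separated downward for 51 factors and upward for 4, and for 44.6% and 41.8% of all genes.

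In A549 only 3 factors were called lower (RRP9, WDR74 and DDX21) and none higher, with 0.456% and 2.22% of all genes called. All 55 fitted fold changes were nevertheless below 0, with a median of -0.55 beside -0.01 for all genes. Both hypoxia libraries lay below both normoxia libraries for 46 factors, compared with 24.7% of all genes, and none had the opposite order, compared with 25.1%. At an unadjusted p under 0.05 there were 36 factors, all with a lower level in hypoxia, where 6.83% of all genes had such a p and a lower level. DESeq2 called 14 factors lower (1.85% of all genes) and a joint fit of all 12 libraries 16 (2.82%). The A549 count rested on the second hypoxia library. Its median log2 ratio to the normoxic mean was -0.85, whereas that of the first was -0.34. In RKO these medians were -1.37 and -1.09, and in H460 -1.20 and -1.21. Without the first A549 hypoxia library 35 factors were called lower (5.34% of all genes were), and without the second 0 were, although 0.484% of all genes were called lower. CA9 stood at 199 and 227 CPM and NDRG1 at 689 and 1771 CPM in the first and second of these libraries. Whether a smaller hypoxia response in the first library accounts for its higher factor levels was not tested.

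**Figure D1:**
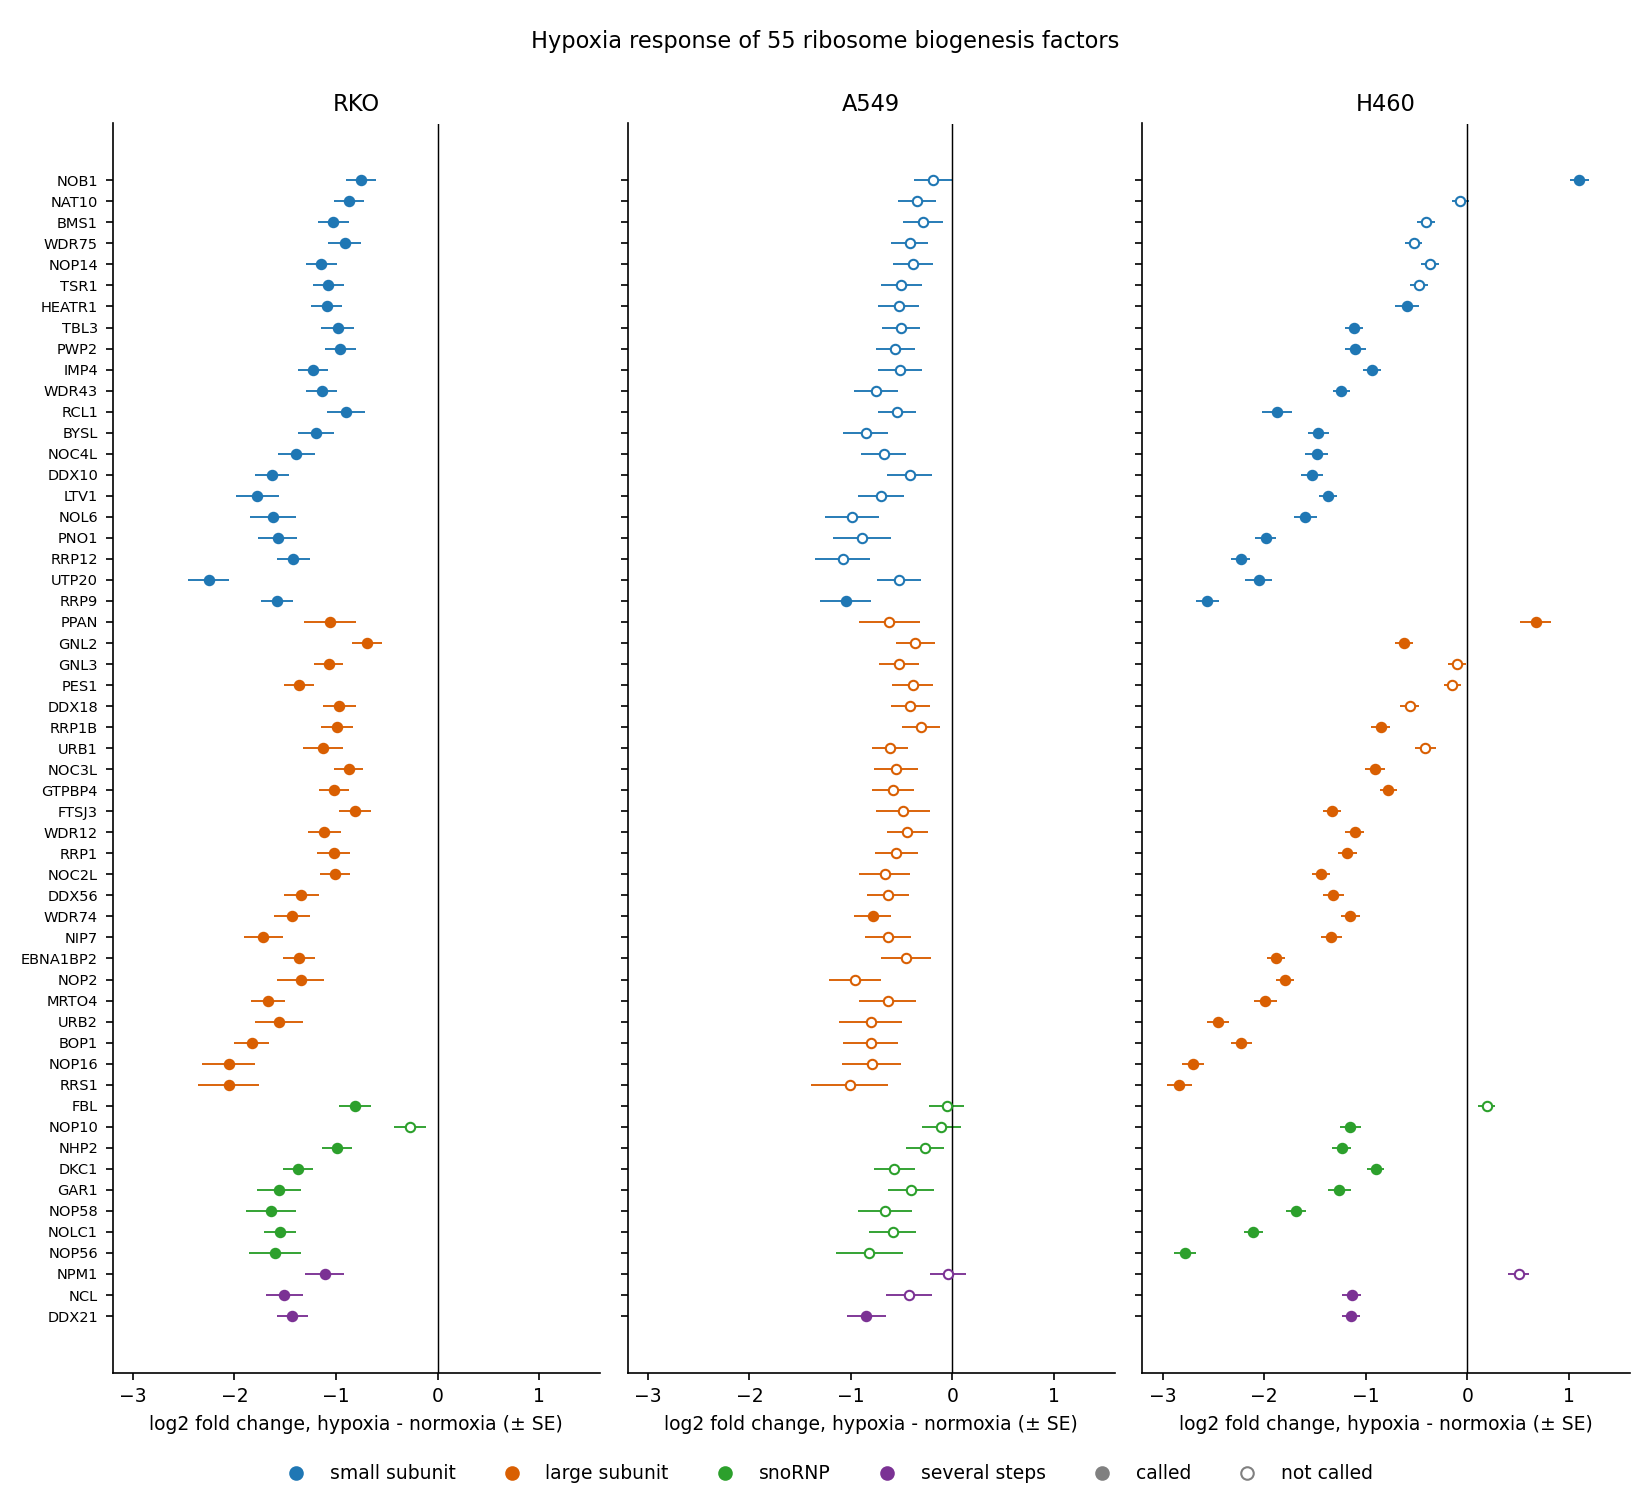
The log2 fold change of hypoxia against normoxia is plotted on the x axis with its SE for each of the 55 factors (rows, grouped by class) in RKO, A549 and H460, with filled points for called and open points for uncalled factors. In RKO 54 points are filled and lie left of 0, in A549 all lie left of 0 but 3 are filled, and in H460 the points spread from -2.84 to 1.10.

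**Figure D2:**
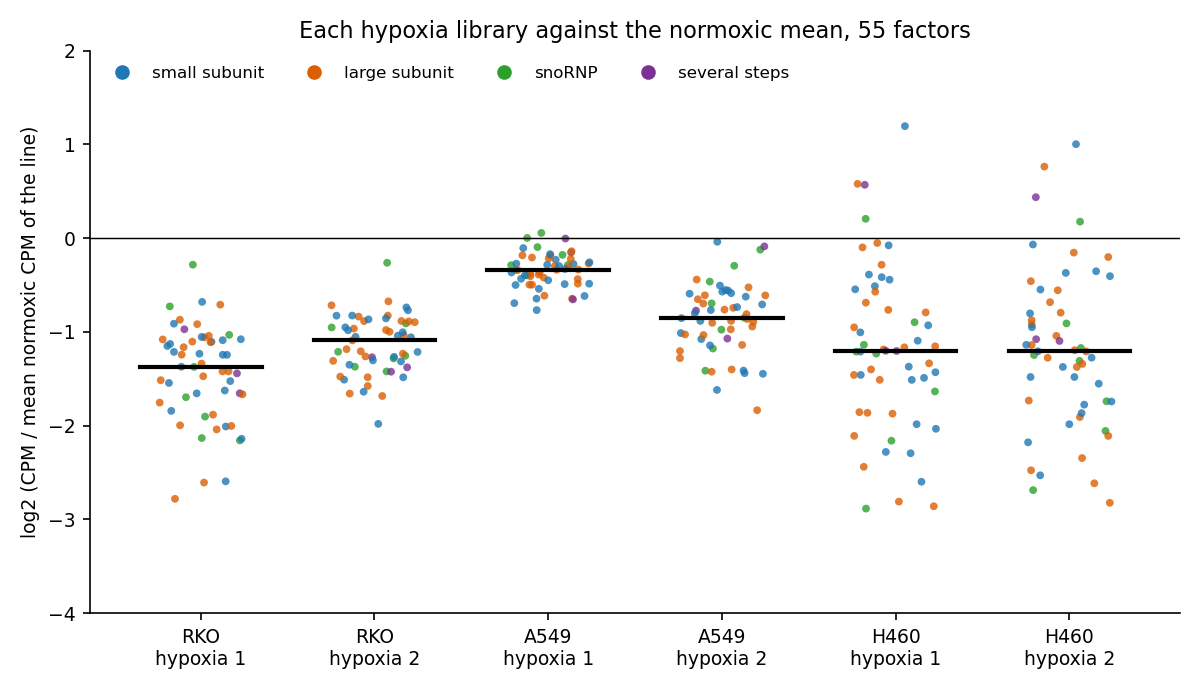
Each point is 1 factor in 1 hypoxia library, as the log2 ratio of its CPM to the mean of the 2 normoxia libraries of the same line on the y axis, and bars are medians. The RKO medians are -1.37 and -1.09, those of A549 -0.34 and -0.85, and those of H460 -1.20 and -1.21.

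The medians of the classes lay close together within a line. In RKO all 21 small-subunit and all 23 large-subunit factors were called lower, with medians of -1.14 and -1.13, and 7 of 8 snoRNP proteins, with a median of -1.46. In H460 15 of 21 small-subunit, 18 of 23 large-subunit and 7 of 8 snoRNP genes were called lower, with medians of -1.24, -1.18 and -1.25. In A549 the medians were -0.53, -0.62 and -0.49, and 1, 1 and 0 genes were called. Of all tested genes 15.1% in RKO, 27.3% in H460 and 0.456% in A549 were called lower. The interquartile ranges of the small- and large-subunit fold changes overlapped in each line. In H460 they ran from -1.60 to -0.53 for the small subunit and from -1.84 to -0.70 for the large subunit. The difference between classes was not tested, because factors of a class are not replicates. Levels differed more than responses, in RPKM (reads scaled to gene length and library size, here with TMM factors). In the first normoxia library the median small-subunit factor stood at 32.6 RPKM in RKO, 26.4 in A549 and 22.4 in H460. The large-subunit medians there were 45.9, 36.5 and 30.8 RPKM, and the snoRNP medians 106, 95.7 and 104 RPKM. Some single factors stood above these medians. In normoxia the box C/D protein FBL averaged 244, 200 and 128 RPKM and NPM1, the most abundant factor, 1263, 879 and 1221 RPKM.

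**Figure D3:**
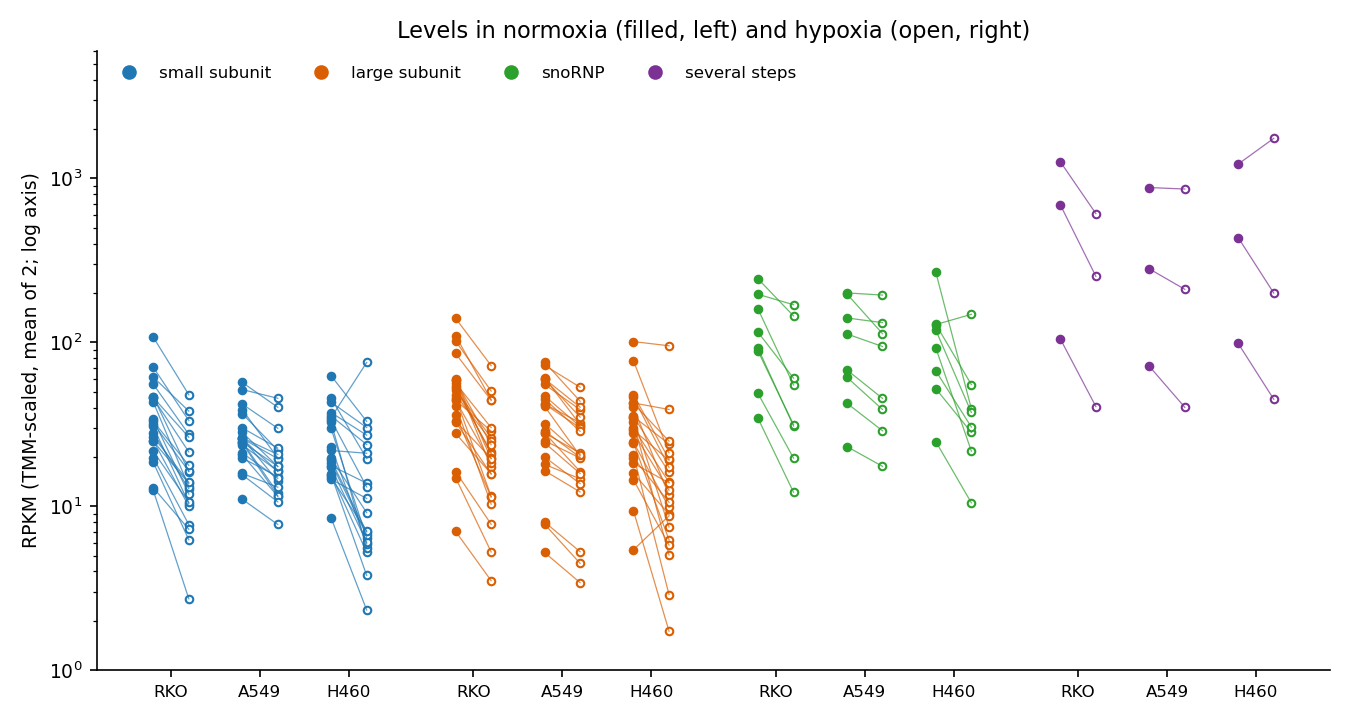
Mean levels of each factor (RPKM with TMM scaling, 2 libraries, log axis) are plotted in normoxia (filled) and hypoxia (open) by class and line, with a line joining the 2 means of a gene. In RKO and A549 the lines slope down, and in H460 those of NPM1, NOB1, PPAN and FBL slope up.

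Among the snoRNP proteins, the box C/D core consists of the methyltransferase FBL and the paired scaffold proteins NOP56 and NOP58. NOP56 stood at 352 and 415 CPM in the RKO normoxia libraries and at 87.6 and 166 CPM in hypoxia. In H460 it went from 517 and 565 CPM to 73.3 and 84.0 CPM, which was 14.5% of the normoxic mean. Neither line had overlapping groups, and the log2 fold changes were -1.60 ± 0.26 (SE, adjusted p = 0.00102 by edgeR) and -2.78 ± 0.11 (2.12e-09). In A549 NOP56 was at 544 and 342 CPM in normoxia and at 337 and 166 CPM in hypoxia, so the groups nearly touched and the change of -0.82 ± 0.33 was not called (adjusted p = 0.260). NOP58 had 194 and 202 CPM in RKO normoxia and 44.4 and 83.1 CPM in hypoxia, and in H460 201 and 229 CPM and then 69.3 and 64.4 CPM. It fell to 32.2% of its normoxic level in RKO and to 31.1% in H460. In A549 it had 133 and 113 CPM and then 101 and 54.5 CPM, with no overlap and no call. FBL differed between RKO and H460 in its response (RKO minus H460 -0.96 ± 0.19, adjusted p = 0.00227). It stood at 333 and 290 CPM in RKO normoxia and at 188 and 166 CPM in hypoxia (-0.82 ± 0.16, adjusted p = 0.00279), but at 139 and 137 CPM in H460 normoxia and at 159 and 156 CPM in hypoxia (0.19 ± 0.08, adjusted p = 0.0545, under the fold minimum). With library size as the only scaling, the H460 value of FBL was -0.16, so its direction depended on the scaling. In A549 FBL levels of 256, 221, 239 and 219 CPM overlapped between the conditions.

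The box H/ACA core consists of the pseudouridine synthase DKC1 with NHP2, NOP10 and GAR1. DKC1, which is mutated in dyskeratosis congenita, stood at 239 and 244 CPM in RKO normoxia and 93.3 and 93.4 CPM in hypoxia, and it was called lower by 1.37 on the log2 scale. In H460 it fell from 214 and 220 to 117 and 116 CPM, and in A549 it had 207 and 186 CPM and then 156 and 109 CPM, with no call. GAR1 had 48.6 and 47.0 CPM in RKO normoxia and 12.8 and 19.7 CPM in hypoxia, and in H460 29.3 and 28.6 CPM and then 12.5 and 11.7 CPM. These were falls to 33.9% and 41.8% of normoxia. In A549 GAR1 stood at 29.7 and 30.3 CPM and then at 26.5 and 18.5 CPM. NHP2 had 114 and 102 CPM in RKO normoxia and 52.7 and 55.7 CPM in hypoxia, and in H460 107 and 95.5 CPM and then 43.2 and 42.7 CPM. It fell to 50.3% and 42.4% of normoxia. In A549 NHP2 was at 105 and 92.0 CPM and then at 92.0 and 71.3 CPM, so the groups overlapped. NOP10, the smallest of these proteins, was the only one of the 55 factors not called in RKO, with 127 and 103 CPM in normoxia and 94.5 and 95.8 CPM in hypoxia (-0.27 ± 0.16, adjusted p = 0.195 by edgeR). In H460 it was called, with 33.1 and 32.9 CPM in normoxia and 15.0 and 14.7 CPM in hypoxia (-1.15 ± 0.10). In A549 the NOP10 libraries overlapped at 85.1, 69.0, 80.1 and 62.9 CPM. NOLC1, a nucleolar and Cajal body protein that binds snoRNPs, had 384 and 385 CPM in RKO normoxia and 119 and 144 CPM in hypoxia, and in H460 352 and 324 CPM and then 75.6 and 81.3 CPM. It fell to 34.1% and 23.2% of normoxia in these lines. In A549 it had 294 and 258 CPM and then 226 and 140 CPM (66.4% of normoxia), without a call.

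RRP9 is a protein of the U3 snoRNP that was counted here with the small-subunit factors. With the large-subunit factor WDR74 and the helicase DDX21, RRP9 was called lower in all 3 lines. Its levels were 81.3 and 80.3 CPM in RKO normoxia and 25.7 and 28.4 CPM in hypoxia. In A549 they were 43.5 and 36.7 CPM, then 23.6 and 15.1 CPM. In H460 they were 49.4 and 45.2 CPM, then 7.81 and 8.19 CPM. No hypoxia library overlapped a normoxia library. The A549 calls of these 3 genes depended on the settings. With library size as the only scaling RRP9 and WDR74 were not called (adjusted p = 0.116 and 0.101 by edgeR), and with limma or without the second A549 hypoxia library none of the 3 was. Without the first A549 normoxia library RRP9 and DDX21 lost the call, and without the second WDR74 and DDX21 did. The log2 fold changes were -1.58 ± 0.16 in RKO, -1.05 ± 0.25 in A549 (adjusted p = 0.0904 by edgeR) and -2.56 ± 0.11 in H460. UTP20, a very large scaffold of the processome, showed the lowest value in RKO, with 120 and 126 CPM in normoxia and 20.4 and 31.2 CPM in hypoxia (-2.26 ± 0.20, adjusted p = 7.71e-05). In H460 it went from 119 and 140 CPM to 26.7 and 35.6 CPM (-2.05 ± 0.13). In A549 it stood at 109 and 95.04 CPM and then at 85.2 and 56.4 CPM, which was not called (adjusted p = 0.273). RRP12, a HEAT-repeat protein of pre-40S particles, went from 89.6 and 102 CPM to 32.9 and 38.9 CPM in RKO and from 126 and 118 CPM to 24.8 and 26.9 CPM in H460. In A549 its libraries did not overlap (112 and 108, then 68.1 and 35.8 CPM), but the adjusted p was 0.105. DDX10, an RNA helicase, went from 70.3 and 62.2 CPM to 21.5 and 21.3 CPM in RKO and from 47.6 and 56.1 CPM to 18.2 and 17.7 CPM in H460. In A549 it had 80.2 and 120 CPM and then 83.1 and 66.6 CPM, so 1 hypoxia library lay above 1 normoxia library.

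NOB1, the endonuclease that makes the final cut at the end of the small-subunit RNA, moved in opposite directions in RKO and H460. In RKO it stood at 123 and 116 CPM in normoxia and 74.4 and 67.2 CPM in hypoxia, and was called lower (-0.75 ± 0.15, adjusted p = 0.00307 by edgeR). In H460 it stood at 58.9 and 54.6 CPM in normoxia and at 130 and 114 CPM in hypoxia, and was called higher (1.10 ± 0.10, adjusted p = 8.74e-07). In A549 the values of 85.8, 101, 72.6 and 91.1 CPM overlapped. The H460 change of NOB1 was 0.75 with library size as the only scaling, so its direction did not depend on that choice. PNO1, the partner that holds NOB1 on the pre-40S particle, fell in both lines, to 33.6% of normoxia in RKO and 25.3% in H460.

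Among large-subunit factors, RRS1 (which helps to place the 5S RNA), NOP16 and BOP1 had the lowest mean fold changes over the lines. RRS1 stood at 85.9 and 85.5 CPM in RKO normoxia and 12.5 and 28.7 CPM in hypoxia, and in H460 at 32.9 and 31.6 and then at 4.44 and 4.56 CPM. The H460 value of -2.84 ± 0.12 (adjusted p = 4.75e-09 by edgeR) was the lowest of all 55 factors in any line. The A549 libraries had 85.3 and 57.0 CPM in normoxia and 50.5 and 19.9 CPM in hypoxia, which were wide apart within each condition and not called (adjusted p = 0.236). NOP16 had 85.4 and 85.9 CPM in RKO normoxia and 14.1 and 27.2 CPM in hypoxia, and in H460 57.1 and 57.3 CPM and then 8.16 and 9.34 CPM. It fell to 24.0% and 15.3% of normoxia. In A549 it had 64.5 and 44.7 CPM and then 40.4 and 22.5 CPM. BOP1 went from 139 and 168 CPM to 38.5 and 47.8 CPM in RKO and from 77.1 and 73.8 CPM to 17.5 and 14.9 CPM in H460. In A549 BOP1 had 220 and 148 CPM in normoxia and 130 and 79.9 CPM in hypoxia. WDR74 had 81.3 and 80.6 CPM in RKO normoxia and 25.5 and 34.5 CPM in hypoxia. In A549 it went from 81.2 and 86.0 CPM to 53.5 and 43.5 CPM (-0.79 ± 0.18, adjusted p = 0.0853), and in H460 from 43.6 and 45.4 CPM to 19.9 and 20.2 CPM.

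PPAN, a large-subunit factor, was the other gene called in opposite directions. It stood at 12.1 and 14.4 CPM in RKO normoxia and 5.26 and 7.5 CPM in hypoxia (-1.06 ± 0.25, adjusted p = 0.00792 by edgeR). In H460 it stood at 7.59 and 9.67 CPM in normoxia and at 12.9 and 14.7 CPM in hypoxia (0.67 ± 0.15, adjusted p = 0.00166). In A549 it was at 9.48 and 8.99 CPM, then at 7.46 and 4.53 CPM, with no call. The H460 call was lost without the first normoxia library (0.47) and with library size as the only scaling (0.32). PPAN was the least abundant factor per length in normoxia in all 3 lines, at 7.03, 5.22 and 5.42 RPKM. Its exons are shared with the read-through gene PPAN-P2RY11 on the same strand, to which 18 to 40 reads per library were assigned, so reads that fit both genes may be missing from its count.

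**Figure D4:**
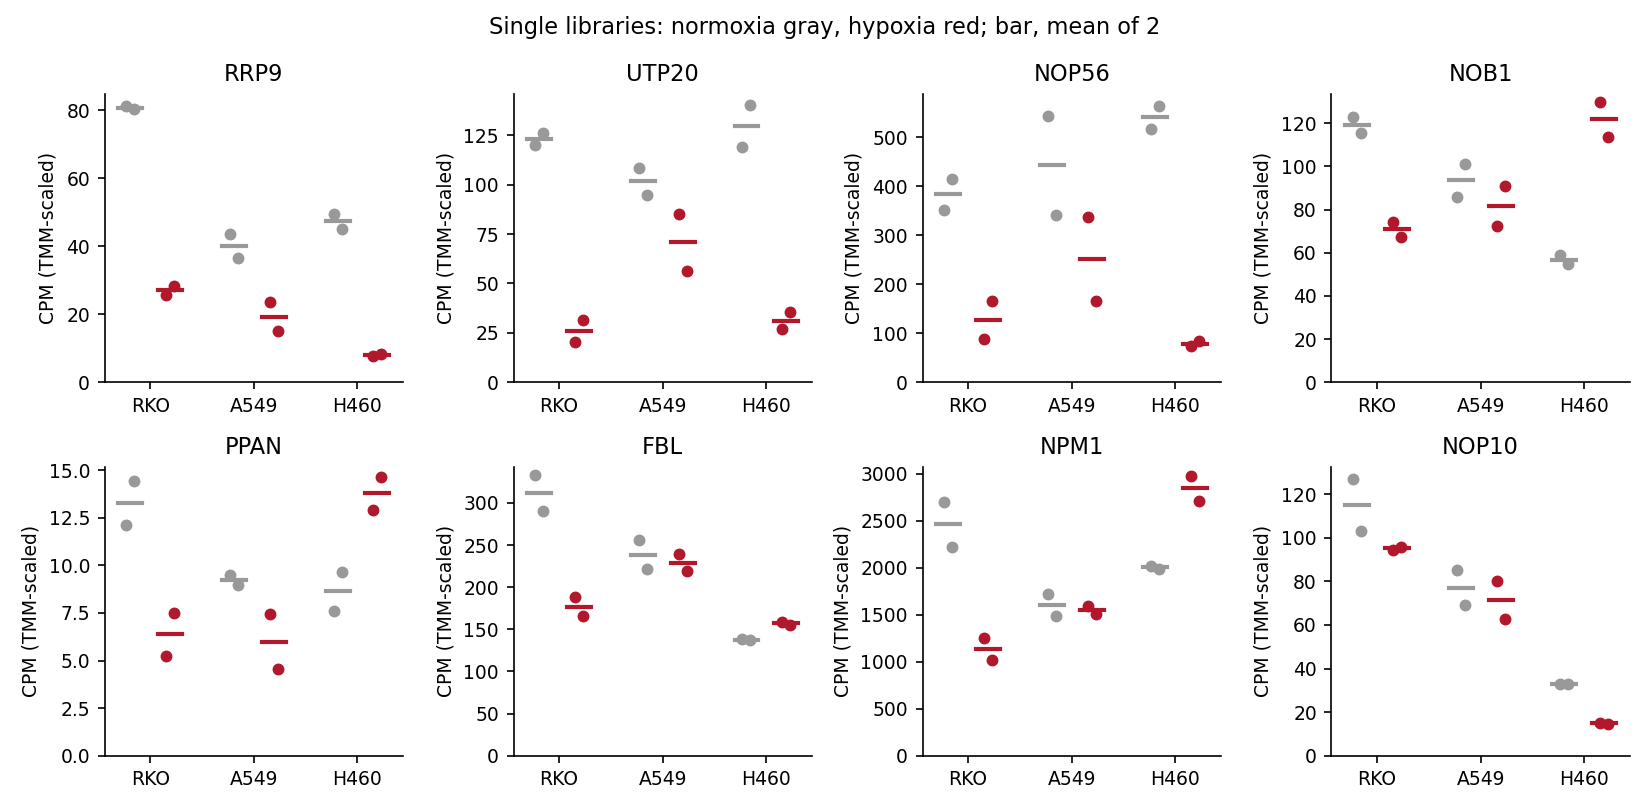
Each panel plots 1 factor as TMM-scaled CPM (y axis from 0) in RKO, A549 and H460, with gray normoxia points, red hypoxia points and bars at the mean of 2 libraries. RRP9, UTP20 and NOP56 are lower in hypoxia, while in H460 NOB1 rises from 58.9 and 54.6 to 130 and 114 CPM and NPM1 and PPAN lie above their normoxia libraries.

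Of the 3 nucleolar proteins that act at several steps, DDX21 is an RNA helicase of pre-rRNA transcription and processing. It stood at 586 and 567 CPM in RKO normoxia and 212 and 215 CPM in hypoxia, at 360 and 374 and then 234 and 175 CPM in A549, and at 452 and 460 and then 198 and 213 CPM in H460. It was called lower by 1.43, 0.85 and 1.15 on the log2 scale, the A549 value with an adjusted p of 0.0824 by edgeR. NCL, an abundant histone and rRNA-binding protein, went from 2116 and 1988 CPM to 652 and 790 CPM in RKO and from 1073 and 1107 CPM to 473 and 517 CPM in H460. In A549 NCL had 853 and 708 CPM and then 702 and 457 CPM, which nearly touched. NPM1, a chaperone of the outer nucleolar layer and the most abundant of the factors in all 6 groups, went from 2699 and 2223 CPM to 1255 and 1021 CPM in RKO (-1.11 ± 0.19). In A549 its levels of 1717, 1485, 1597 and 1507 CPM overlapped. In H460 they went from 2016 and 1990 CPM to 2974 and 2714 CPM (0.51 ± 0.10, adjusted p = 0.000935), under the fold minimum of 1.5. With library size as the only scaling the median of all H460 genes was -0.39 rather than -0.04. The size of the NPM1 rise thus depended on the scaling. Close processed copies of NPM1 exist in the genome, and reads that match several copies may be lost or misassigned. Of the 3 proteins only NPM1 had a higher level in H460 hypoxia than in normoxia.

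In H460, genes whose products work in 1 complex had different calls, a grouping made after the values were seen. PES1, BOP1 and WDR12 form the PeBoW complex of the pre-60S particle. BOP1 and WDR12 were called lower in H460, at 21.4% and 46.3% of normoxia, whereas PES1 stood at 113 CPM in both normoxia libraries and at 105 and 98.2 CPM in hypoxia (-0.15 ± 0.08, adjusted p = 0.133 by edgeR). In RKO all 3 were called lower, at 38.9%, 28.1% and 46.2%, and PES1 went from 190 and 178 CPM to 68.7 and 74.3 CPM. In A549 PES1 had 136 and 111 CPM in normoxia and 107 and 81.0 CPM in hypoxia, close together and not called. In the box C/D core, NOP56 and NOP58 fell and FBL was not called. The GTPase BMS1 stood at 75.5% of normoxia in H460 and was not called, while its partner RCL1 fell by 1.87 on the log2 scale. The table has 6 BMS1 pseudogenes, which can take up reads of BMS1. GNL3, the nucleolar GTPase also known as nucleostemin, and the RNA acetyltransferase NAT10 were also not called in H460. GNL3 stood at 195 and 203 CPM in normoxia and 192 and 179 CPM in hypoxia, and NAT10 at 83.5 and 79.5 and then at 77.3 and 77.8 CPM. Their log2 fold changes of -0.10 and -0.07 had adjusted p values of 0.311 and 0.460. In RKO both were called lower, at 47.5% and 54.8% of normoxia. NOP14, WDR75, TSR1, DDX18 and URB1 had H460 adjusted p values under 0.1 with folds under 1.5. With library size as the only scaling 48 rather than 42 factors were called lower in H460, and 40.9% rather than 27.3% of all genes. Which genes of a complex were called could thus depend on the scaling.

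Only 3 factors were called lower in all 3 lines. The largest set, 38 factors, was called lower in RKO and H460 and not in A549. A further 11 were called in RKO alone, NOP10 was called in H460 alone, and NOB1 and PPAN were called lower in RKO and higher in H460. The share of all genes with each of these patterns was not computed. Line by line, 15.1%, 0.456% and 27.3% of all tested genes were called lower in RKO, A549 and H460. A call in one line and not in another does not show a difference, so the difference itself was fitted over the 12 libraries. The hypoxia effect differed between RKO and A549 for 21 of the 55 factors (adjusted p under 0.1 by edgeR), where 14.6% of all genes differed, and in all 21 the RKO effect was the more negative. Between A549 and H460 35 factors differed, where 36% of all genes did, and 32 of these were more negative in H460. Between RKO and H460 18 differed, where 37.6% of all genes did, with 11 more negative in RKO and 7 more negative in H460. The shares of all genes that differed in each direction were not computed. By class, in the order small subunit, large subunit and snoRNP, 6, 8 and 5 factors differed between RKO and A549. The counts were 12, 15 and 6 between A549 and H460 and 8, 5 and 4 between RKO and H460. With 3 libraries left in a line the test has fewer degrees of freedom. The share of all genes that differed then moved as well, mostly downward. A changed total therefore does not describe the factors alone. The first total was 8 without the first RKO normoxia, the first RKO hypoxia or the second A549 normoxia library, 14 without the second RKO normoxia library, 7 without the first A549 hypoxia library and 41 without the second. The total for A549 and H460 was 18 to 23 without the first A549 hypoxia, the second A549 normoxia or any 1 H460 library, and 40 without the second A549 hypoxia library. The total for RKO and H460 was 11 without the first H460 hypoxia library and 12 without the first normoxia library of either line.

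For RKO and A549 the smallest p values belonged to UTP20, with a difference of -1.69 ± 0.30 on the log2 scale (adjusted p = 0.00579 by edgeR), DDX10 (-1.16 ± 0.26) and NPM1 (-1.02 ± 0.23). The minus sign means that the RKO effect was the lower one. For RKO and H460 they belonged to NOB1 (-1.81 ± 0.22, adjusted p = 7.62e-05), NPM1 (-1.57 ± 0.23) and PES1 (-1.17 ± 0.21), and PPAN also differed (-1.69 ± 0.36, adjusted p = 0.00315). For A549 and H460 they belonged to NOB1 (-1.30 ± 0.21), NOLC1 (1.51 ± 0.26) and RRP9 (1.51 ± 0.26), the last 2 with the more negative effect in H460. Across the 55 factors, Pearson's r of the fold changes was 0.597 (RKO with A549), 0.647 (RKO with H460) and 0.688 (A549 with H460), beside 0.478, 0.450 and 0.546 across all genes tested in both lines. These are descriptions across genes, which are not independent replicates.

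**Figure D5:**
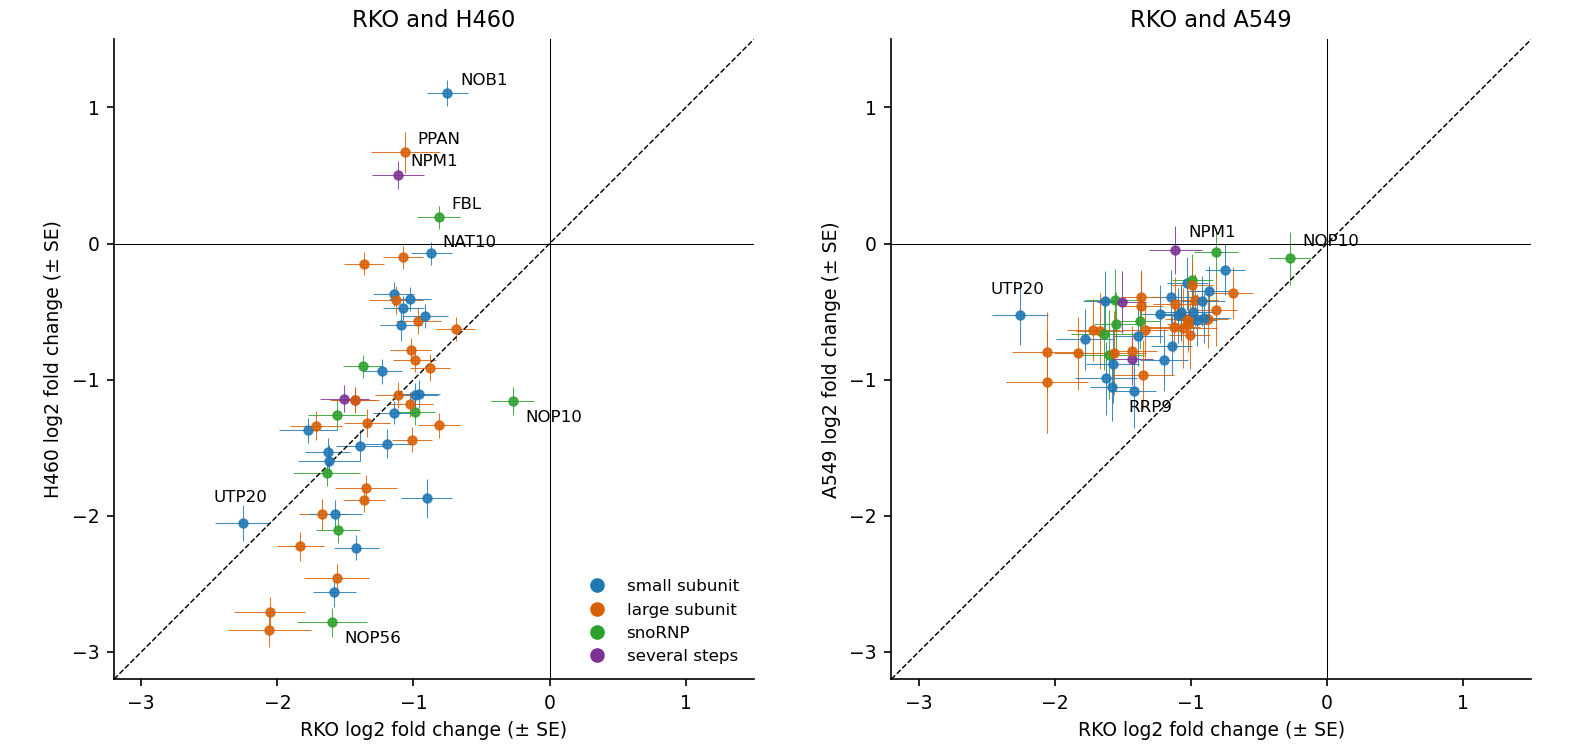
Each point is 1 factor, with its RKO log2 fold change and SE on the x axis and that of H460 (left) or A549 (right) on the y axis, coloured by class, and the dashed line marks equal change. In the left panel NOB1, PPAN, NPM1 and FBL lie above 0 for H460, and in the right panel the points lie above the line of equal change.

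The windows around the start sites were read for motifs. A RefSeq promoter table (GRCh38.p14, 250 bases before to 50 after the start) held 55 windows for 47 of the factors, and NOP58, NOLC1, RRP12, RRP1B, RRS1, BOP1, DDX18 and URB2 had no entry. Both strands were searched for CACGTG, the E-box that MYC and its relatives bind, and for ACGTG, the core of the hypoxia response element, which lies inside the E-box letters, so the 2 searches overlap. CACGTG was found in 24 of the 55 windows (43.6%) and in 7.26% of all 35116 windows, or 8.34% of those of protein-coding genes. ACGTG was found in 27 of the 55 windows (49.1%) and in 21.4% of all windows. By gene, CACGTG was present for 12 of 20 small-subunit, 7 of 18 large-subunit and 3 of 6 snoRNP factors, and for DDX21. Of its 26 occurrences, 18 (69.2%) began after the start site, compared with 11.1% of all occurrences in the table. The following 30-base stretches are those of the factors given above with values in every library, with the E-box in capitals. PNO1, RCL1, GNL3, NAT10 and NOP14, also named above, had an E-box too, and their stretches are not shown. Counted from the RefSeq start site (the first transcribed base is 1), the E-boxes begin at -5 in RRP9, -10 in UTP20, -31 in DDX21, 7 in FBL, 32 in GAR1, 14 in PES1, and -170 and -11 in NOP10. The deposited table places some gene starts elsewhere. Positions on GRCh37 come from an exact match to the genome.
RRP9, minus strand, chr3:51975908-51975937: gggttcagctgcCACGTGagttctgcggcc
UTP20, plus strand, chr12:101673861-101673890: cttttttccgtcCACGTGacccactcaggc
DDX21, plus strand, chr10:70716360-70716389: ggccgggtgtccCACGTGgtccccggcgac
FBL, minus strand, chr19:40336996-40337025: tgcgctcttttcCACGTGcgaaagccccgg
GAR1, plus strand, chr4:110736937-110736966: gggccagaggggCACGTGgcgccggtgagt
PES1, minus strand, chr22:30987867-30987896: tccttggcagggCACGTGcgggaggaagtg
NOP10, minus strand, chr15:34635490-34635519: gtagggacactcCACGTGttttagcctgca
NOP10, minus strand, chr15:34635331-34635360: gaaattgacgaaCACGTGacgcggtcgggc

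Factors with and without the E-box overlapped in their responses. The 23 factors with it had median log2 fold changes of -1.23 in RKO, -0.55 in A549 and -1.24 in H460, and the 24 without it had -1.10, -0.54 and -1.13. Both called-higher genes, NOB1 and PPAN, had no E-box in their windows (NOB1 had ACGTG, as did NCL and WDR12, which also lacked the E-box). NPM1, which rose in H460 under the fold minimum, had none either. FBL had an E-box and an H460 value of 0.19, and NOP56, without an E-box, had 1 of the lowest values in H460. A link between the motif and the response was not tested. In H460 18 of the 23 factors with the E-box and 17 of the 24 without it were called lower, where 27.3% of all genes were. The longer upstream stretches of UTP20, which had an E-box and the lowest RKO value, of NOP56 and of NOB1 are given for comparison, each ending before the start of the gene in both the RefSeq table and the deposited table. The ACGTG of NOB1 is not in the stretch shown.
UTP20, plus strand, chr12:101673633-101673882: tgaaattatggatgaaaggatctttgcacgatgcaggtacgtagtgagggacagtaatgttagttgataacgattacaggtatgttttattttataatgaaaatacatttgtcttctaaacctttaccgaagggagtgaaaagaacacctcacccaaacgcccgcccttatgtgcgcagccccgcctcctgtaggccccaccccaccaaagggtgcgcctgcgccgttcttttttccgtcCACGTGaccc
NOP56, plus strand, chr20:2633028-2633176: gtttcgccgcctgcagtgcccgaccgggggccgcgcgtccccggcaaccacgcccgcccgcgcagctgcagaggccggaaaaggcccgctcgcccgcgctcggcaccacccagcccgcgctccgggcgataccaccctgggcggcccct
NOB1, minus strand, chr16:69788872-69789079: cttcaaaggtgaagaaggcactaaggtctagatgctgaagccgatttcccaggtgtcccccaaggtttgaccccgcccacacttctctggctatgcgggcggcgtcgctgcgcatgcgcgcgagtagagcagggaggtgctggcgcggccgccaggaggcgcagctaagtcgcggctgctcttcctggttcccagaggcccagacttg
A match is a string of letters, and binding was not measured. MYC mRNA itself stood at 576 and 500 CPM in RKO normoxia and 286 and 301 CPM in hypoxia, and was called lower (-0.87 ± 0.16, adjusted p = 0.00193 by edgeR). In A549 it stood at 108, 164, 132 and 118 CPM with overlapping conditions. In H460 it went from 262 and 237 CPM to 199 and 188 CPM (-0.36 ± 0.09, adjusted p = 0.00350), under the fold minimum. Whether the fall of MYC mRNA and that of the factors are linked was not tested.

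In normoxia the share of factors that differed between lines was below that of all genes. The counts were 24 of 55 for RKO and A549 (60.2% of all genes), 28 for RKO and H460 (61.9%) and 18 for A549 and H460 (52.1%). RKO had higher normoxic levels than A549 for 22 factors and lower levels for 2 (RCL1 and DDX10), where 26% and 34.1% of all genes were called. Against H460, RKO was higher for 24 factors and lower for 4 (WDR75, NOP56, HEATR1 and RRP12), where 27.2% and 34.7% of all genes were called. A549 was higher than H460 for 11 and lower for 7, where 26.9% and 25.2% were called. The median log2 differences were 0.48, 0.53 and -0.02. GTPBP4, a GTPase of the pre-60S particle, stood at 140 RPKM in RKO, 59.9 in A549 and 42.3 in H460, and RRP1B at 47.8, 18.0 and 15.9 RPKM. NOP10 stood at 196, 141 and 66.9 RPKM. NOP56 stood at 160, 197 and 268 RPKM, and only its difference between RKO and H460 was called (adjusted p = 0.0459 by edgeR). The fold change of a factor had little relation to its normoxic level, with Spearman's rho of 0.06, 0.06 and 0.10 in RKO, A549 and H460 across the 55 genes.

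Within their span, 9 of the factors (NOP56, NOP58, NCL, DKC1, WDR43, GNL3, TSR1, PPAN and URB1) carry snoRNA genes, most of which are cut from introns. Calls of a lower level numbered 9 in RKO, 0 in A549 and 5 in H460, with medians of -1.14, -0.62 and -0.90. The 46 other factors had 45, 3 and 37 such calls, with medians of -1.21, -0.55 and -1.25. Of all tested genes 15.1%, 0.456% and 27.3% were called lower in these lines. The snoRNAs themselves carry no poly(A) tail and were not measured by these libraries.

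A further list of 80 ribosome biogenesis genes outside the 55 was read in the same way, and all 80 were tested. In RKO 65 were called lower and none higher, in H460 47 lower and 2 higher, and in A549 0 in either direction, against the shares of all genes given above (15.1%, 27.3% and 0.456% lower). In A549 34 had an unadjusted p under 0.05, 33 of them with a lower level, which 6.83% of all genes had. The medians were -0.91, -0.67 and -0.41. In RKO the lowest values were those of RRP15 (-1.85) and GRWD1 (-1.66), and in H460 those of RRP7A (-2.01) and CIRH1A (-1.94), a processome subunit. In A549 UTP15 (-0.99) and PAK1IP1 (-0.95) were lowest. GLTSCR2, a late nucleolar factor of the large subunit, had the highest value of the list in each line, at 0.12, 0.53 and 1.14, and was called only in H460, where it went from 114 and 106 CPM to 249 and 233 CPM. NMD3, the export adaptor of the 60S subunit, was the other gene called higher in H460, from 52.1 and 48.1 CPM to 105 and 94.2 CPM.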

How the data were processed

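Poly(A)+ RNA-seq libraries were prepared with a strand-specific kit from 3 cell lines in 2 oxygen conditions. The submitters' processing notes name TopHat2 2.0.13, Bowtie2 2.2.3.0, SAMtools 1.3.1, Picard 1.129 and HTSeq 0.6.1 on GRCh37. The authors deposited a read count per gene and library, which was the input of the tests, and an RPKM value, which equals the count scaled by gene length and library total and was used as an alternative. Per the study's methods, alignments of low mapping quality were removed and HTSeq ran in its intersection-nonempty mode, by strand. How many reads of genes with copies or overlaps were left out was not measured.

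For each line, the 4 libraries were tested by the quasi-likelihood method of edgeR 4.0.16 (R 4.3.3) after TMM scaling, keeping genes over 0.5 CPM in at least 2 libraries. All 55 factors passed this filter in each line. The study's thresholds were used (adjusted p under 0.1, fold over 1.5). Differences between lines came from a joint fit of 12 libraries and 15595 genes, with the adjusted p alone for hypoxia effects. CPM values are scaled by TMM within a line, and RPKM levels by TMM over all libraries. An exact test of 2 against 2 libraries cannot go below 0.333, so single values were not tested that way. Alternatives were DESeq2 1.42.0, other scalings and filters, limma 3.58.1 on log2(RPKM + 0.1) and log2(RPKM + 1), and leaving out each library. The scripts were tested on simulated data.

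The members, their classes and the other lists were chosen with earlier results of these data known. Values in every library are given for factors called in all lines or in opposite directions, all snoRNP and multi-step proteins, the class extremes and the smallest interaction p values. Other genes were described after their values were seen.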

Additional observations from a re-analysis of the deposited data

Results flagged for a closer look

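The hypoxia response differed between lines by a test of the difference over the 12 libraries (edgeR, adjusted p under 0.1) as follows. RKO and A549 differed in 21 factors (14.6% of all genes), RKO and H460 in 18 (37.6%), and A549 and H460 in 35 (36%). The count for RKO and H460 was a smaller share of the 55 than that of all genes. On leaving out a library the share of all genes moved as well, so the counts that follow do not describe the factors alone. The first count was 7 without the first A549 hypoxia library and 41 without the second, and the last was 18 and 40 without these libraries.

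Single factors also differed in their response on the log2 scale. RKO minus A549 was -1.69 for UTP20, -1.16 for DDX10 and -1.02 for NPM1. RKO minus H460 was -1.81 for NOB1, -1.57 for NPM1, -1.17 for PES1 and -1.69 for PPAN. A549 minus H460 was -1.30 for NOB1, 1.51 for NOLC1 and 1.51 for RRP9.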

How the results depend on the processing

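With 2 libraries per group, single values in A549 rested on 1 library. The 3 factors called lower in A549 (0.456% of all genes) became 1 with library size only (0.288%) and 1 at a fold over 2 (0.33%). They became 14 with DESeq2 (1.85%), 10 with no filter (1.09%) and 16 in the joint fit (2.82%). With limma 0 were called at either pseudocount, 0.1 or 1, where 0.344% and 0.267% of all genes were. Leaving out 1 library gave 0 to 35 calls in A549 and medians from -0.85 to -0.34. The cause was not tested. The 2 factors called higher in H460 became 1 with library size only, with limma at both pseudocounts and at a fold over 2, 4 with no fold minimum, and 1 to 3 on leaving out a library. The H460 median was -1.53, -1.52 and -1.49 with library size only and with limma at 0.1 and 1, because these do not use TMM, which shifted the median of all genes to -0.39 with library size only. With that scaling 40.9% of all genes were called lower and 14.7% higher. The 42 factors called lower in H460 became 48 with it and with limma at both pseudocounts. With limma at 0.1 and 1, 39.8% and 31.7% of all genes were called lower. Called higher in H460 were 14.3% and 11.4% with limma at 0.1 and 1, and 24.6% in the main fit. The share was 13.5% at a fold over 2 and 38% with no fold minimum. For differences between lines, the share of all genes also moved with the scaling and on leaving out a library. The count of factors that differed between RKO and A549 was 11 with library size only and 7 to 41 on leaving out a library. On leaving out a library it was 11 to 18 between RKO and H460 and 18 to 40 between A549 and H460.

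Replicates with the same number deviated together by r = 0.363 in RKO, 0.382 in A549 and 0.158 in H460, but the labels give them only a shared number. With the replicate block, 26 factors were called lower in A549 (8 small-subunit, 13 large-subunit and 4 snoRNP genes and DDX21), where the share of all genes was 5.07%. The block raised the count that differed between RKO and A549 to 38, where 26.9% of all genes differed.

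The signs that reversed were those of values near 0. In A549 the range on leaving out a library was -0.16 to 0.051 for FBL, -0.30 to 0.056 for NOP10 and -0.15 to 0.063 for NPM1. FBL was at 0.0025 without the second hypoxia library and NOP10 at 0.050 without the first normoxia library. In H460 FBL was at -0.16 with library size only. This check of single factors started from 76 main values and did not cover every factor in each line. Of the remaining values of single factors across the alternatives, 594 kept direction and call, 27 gained a call and 11 lost it.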
